A study of Mus musculus with 33 samples.

Results

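The RNA of mouse P19 embryonal carcinoma cells taken through 3 days of DMSO differentiation was compared with that of the undifferentiated cells they came from. All 3 libraries labelled D3DMSO were set against all 3 labelled D0, which makes 6 of the 33 samples of the series. Every gene with at least 1 CPM in at least 3 of these 6 libraries was tested, 13837 of the 14717 genes in the deposited table. CPM here means counts per 1000000 of a library size taken from the deposited scale, which differs from the library's total count. P19 is a mouse teratocarcinoma line that can be steered into mesoderm by dimethyl sulfoxide (DMSO) and into neural cells by retinoic acid. The whole study holds 15 RNA libraries in 5 groups and 18 chromatin immunoprecipitation samples. The D0 cells were kept sparse in a medium with charcoal-stripped serum and received neither agent. The D3DMSO cells were aggregated into embryoid bodies with 1% DMSO in bacterial dishes, then returned to flasks in the maintenance medium, and were taken at day 3. Another group of 3 libraries, D3RA, went through the same aggregation with 1 µM all-trans retinoic acid in place of DMSO and serves below as a day 3 comparison. The day 6 groups of 3 libraries each are D6DMSO (1% DMSO) and D6RA (1 µM retinoic acid). They enter below only where named and in the fits of all 15 libraries. No genotype differed between the groups. DMSO, aggregation and 3 days of culture came together in D3DMSO, so their parts cannot be told apart against D0, and in these bulk libraries fewer cells of a type and less RNA per cell cannot be told apart either.

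During gastrulation, epiblast cells that receive Nodal, Wnt and FGF signals pass through the primitive streak and become mesoderm. A rise of T, Wnt3a and Cdx2 marks nascent and caudal mesoderm, and Kdr marks its lateral and vascular derivatives. In embryos these changes go with shifts in growth, carbon metabolism and protein synthesis, and such programmes are the subject of most of what follows.

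Each of the 4 markers was higher at day 3. The streak factor gene T stood at 3.08, 3.46 and 2.46 CPM in the D0 libraries and at 854, 891 and 877 CPM in the D3DMSO libraries. The receptor gene Kdr went from 0.821, 0.472 and 1.42 to 31.5, 60.3 and 48.5 CPM. No library of one group reached the range of the other, and the log2 fold changes were 8.17 ± 0.12 (SE, n = 3 per group) and 5.67 ± 0.35. Wnt3a had no count in any D0 library and 31.8, 55.2 and 41.0 CPM at day 3, which is at least 379.6-fold higher against a floor of 3 counts over the D0 group. Cdx2 had 2 counts over the 3 D0 libraries and 79.1, 117 and 90.2 CPM at day 3, so the day 3 value was 1241 times the D0 value (95% interval from counting error alone, 343 to 10255). T was at 0.182, 0.651 and 0 CPM in D3RA and passed the test between the day 3 routes, whereas Kdr was at 66.8, 53.7 and 78.6 CPM in D3RA and did not pass the test between the routes (adjusted p = 0.056), though with the replicate number as a block it was lower in D3DMSO (adjusted p = 0.022). Of 7 neural markers tested none was higher (none at an unadjusted p under 0.05 in limma either) and 5 were lower than in D0, among them Elavl3 at -2.89 ± 0.22 and Tubb3 at -1.48 ± 0.11 on the log2 scale. The summed level of the neural list was 327 to 369 CPM in D0, 244 to 255 CPM in D3DMSO and 1423 to 1536 CPM in D3RA. Of 11 parietal endoderm markers 7 were higher and 1 was lower, with sums of 741 to 827 CPM in D0 and 1204 to 1383 CPM in D3DMSO. Most of the rise in the sum came from Fst, at 34.3 to 41.4 CPM in D0 and 478 to 574 CPM in D3DMSO. The lower gene was Sparc, at 291 to 319 CPM in D0 and 59.9 to 84.0 CPM in D3DMSO. Snai1, Fst and Lama1 in that list are also made by mesoderm, and the part of parietal endoderm cells in the results below was not tested. Markers of endothelium and blood summed to 14.8 to 17.0 CPM in D0, 4.49 to 6.77 CPM in D3DMSO and 137 to 181 CPM in D3RA. Of the 14 markers written only 3 were tested, with 0 higher and 2 lower than in D0. Tek, given below, made up most of the D0 sum.

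Over all genes, 7285 of 13837 (52.6%) passed an adjusted p of 0.05. At day 3, 3573 genes (25.8%) were higher and 3712 (26.8%) were lower, and the median log2 fold change was 0.00. All 3 libraries of one group lay above all 3 of the other for 29.9% of the tested genes with D3DMSO on the high side and 30.6% with D0 on the high side. Total counts were 7129180 to 9878744 in D0 and 5857131 to 6868198 in D3DMSO. Between 3.09% and 32.8% of the counts of a D3DMSO library came from 4 features, against 8.86% to 23.2% in D0, and D3DMSO replicate 1 was the library at 3.09%. Scaling by total count, which includes those features, left 2106 higher and 2565 lower genes. The shares of 25.8% higher and 26.8% lower are the measure against which the main counts for each gene group are given below. Counts given under total count scaling have their own measure, 2106 higher and 2565 lower of 13837 genes. The strips of 16 gene lists show where groups lay against the median of all genes.

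**Figure D1:**
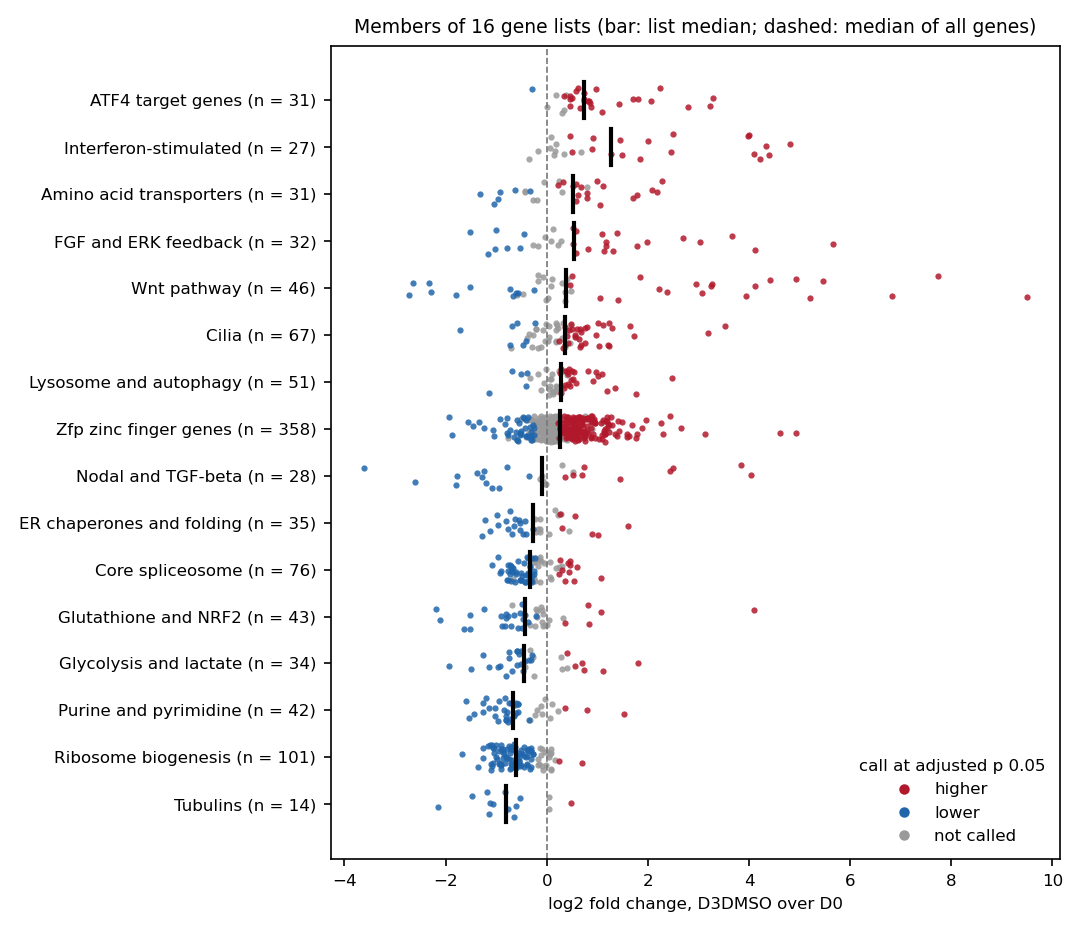
Log2 fold change (D3DMSO over D0, horizontal axis) of every tested member of 16 gene lists, 1 point per gene, coloured by its call at an adjusted p of 0.05, with a black bar at each list's median and a dashed line at the median of all 13837 genes. The ATF4 target and interferon-stimulated lists lie mostly to the right (medians 0.74 and 1.28), and the ribosome biogenesis, purine and pyrimidine and tubulin lists lie mostly to the left (medians -0.61, -0.67 and -0.80).

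FGF ligands moved in both directions. Of 32 genes of the FGF pathway and its ERK feedback, 18 were higher and 7 were lower, with a median log2 fold change of 0.55. Fgf8, the ligand that drives cells out of the streak, stood at 2.56, 1.89 and 3.21 CPM in D0 and 142, 128 and 121 CPM in D3DMSO. Fgf10, which signals in limb and heart mesoderm, went from 0.615, 0.629 and 1.89 to 14.8, 18.5 and 17.5 CPM, and Fgf3 went from 1.03, 1.10 and 0.756 to 9.11, 17.0 and 13.3 CPM. The groups did not overlap for any of these ligands, and their log2 fold changes were 5.67 ± 0.18, 4.12 ± 0.37 and 3.67 ± 0.29, with adjusted p-values of 1.3e-08, 1.1e-05 and 4.0e-06. Fgf5, a marker of primed epiblast, moved the other way, from 17.3, 14.2 and 13.9 to 7.59, 2.26 and 8.05 CPM (-1.52 ± 0.39, adjusted p = 0.008). The lowest D0 library was above the highest D3DMSO library. Fgf15 was lower by a smaller step (-0.78 ± 0.17), a call that was lost when the 9 libraries of D0 and day 3 (adjusted p = 0.11) or all 15 (adjusted p = 0.060) shared one estimate of the spread. The receptor gene Fgfr2 was at 36.5, 41.8 and 40.5 CPM and then 21.8, 16.8 and 19.5 CPM (-1.03 ± 0.12), while D3RA had 173, 153 and 179.5 CPM. Dusp4 and Spry2, feedback genes that ERK activity is known to induce, rose by 3.03 ± 0.09 and 1.14 ± 0.10; both were chosen for naming after their values were seen, and over the 19 tested Dusp symbols 7 were higher and 7 lower (median -0.04). In D3RA all of Fgf8, Fgf10, Fgf3 and Fgf5 stood below 2 CPM, and each was higher in D3DMSO than in D3RA.

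Wnt pathway genes moved in both directions. Of 46 genes 20 were higher and 11 were lower (median 0.38). Wnt8a, a streak ligand, rose from 1.95, 1.10 and 1.23 to 198, 138 and 160.2 CPM (6.82 ± 0.21), and no read of it was counted in D3RA. Axin2, a feedback inhibitor and common readout of beta-catenin signalling, was at 10.5, 11.8 and 11.1 CPM in D0 and 73.6, 98.9 and 111 CPM at day 3. The target Lef1 went from 21.5, 23.3 and 25.3 to 79.5, 126 and 127 CPM. For both, each D3DMSO library exceeded each D0 library, with log2 fold changes of 3.06 ± 0.15 and 2.21 ± 0.17. The transcriptional target Sp5 was among the most changed genes of all (7.73 ± 0.45), and the secreted antagonist Dkk1 went from 0, 0.629 and 0.378 to 6.77, 17.2 and 10.998 CPM (5.46 ± 0.81). In the other direction, Tcf7l1, the TCF member that represses Wnt targets in pluripotent cells, was at 32.5, 39.3 and 51.3 CPM and then 8.29, 7.18 and 8.52 CPM. The secreted antagonist Sfrp1 went from 129.9, 138 and 123 to 21.4, 17.0 and 20.8 CPM. The receptor Fzd9 went from 6.15, 5.82 and 6.71 to 1.93, 0.616 and 0.620 CPM. All of these falls were without overlap (Tcf7l1 -2.33 ± 0.17, Sfrp1 -2.72 ± 0.11, Fzd9 -2.65 ± 0.40). In D3RA Axin2 was at 53.6, 49.5 and 57.1 CPM and Tcf7l1 at 5.56, 5.54 and 10.0 CPM; Axin2 was higher in D3DMSO than there by a log2 difference of 0.80, and Tcf7l1 did not pass the test (difference 0.22). Lef1 was far lower in D3RA (3.73, 4.56 and 6.85 CPM).

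Nodal signalling genes moved in both directions. Of 28 genes 9 were higher (32.1%) and 12 were lower (42.9%), with a median of -0.08. The activin antagonist Fst went from 36.9, 41.4 and 34.3 to 574, 478 and 566 CPM (3.84 ± 0.10), and the ligand Tgfb1 went from 1.54, 2.99 and 2.46 to 12.6, 10.9 and 13.6 CPM (2.43 ± 0.26). The Nodal antagonists Lefty1 and Lefty2, neighbours of near-identical sequence whose reads can be shared, moved in opposite directions. Lefty1 was at 78.8, 79.9 and 69.1 CPM and then 28.6, 16.6 and 22.5 CPM (-1.78 ± 0.17), and Lefty2 was at 4.10, 3.77 and 2.74 CPM and then 43.6, 79.4 and 56.4 CPM (4.03 ± 0.23). Neither gene's groups overlapped. Gdf3, a Nodal-related ligand of pluripotent cells, fell from 70.9, 66.5 and 64.3 to 15.6, 6.98 and 12.1 CPM (-2.605 ± 0.23). Pcsk6, a convertase that processes Nodal, fell from 6.26, 4.25 and 4.92 to 0.276, 0.205 and 0.620 CPM (-3.61 ± 0.40). Nodal itself was at 43.4, 41.7 and 37.3 CPM and 83.5, 54.8 and 61.7 CPM (0.69 ± 0.14, adjusted p = 0.0024), a call that was lost when the spread was shared over 9 (adjusted p = 0.096) or all 15 libraries (adjusted p = 0.21). In D3RA Nodal, Lefty1, Lefty2 and Gdf3 stood between 0 and 1.30 CPM.

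**Figure D2:**
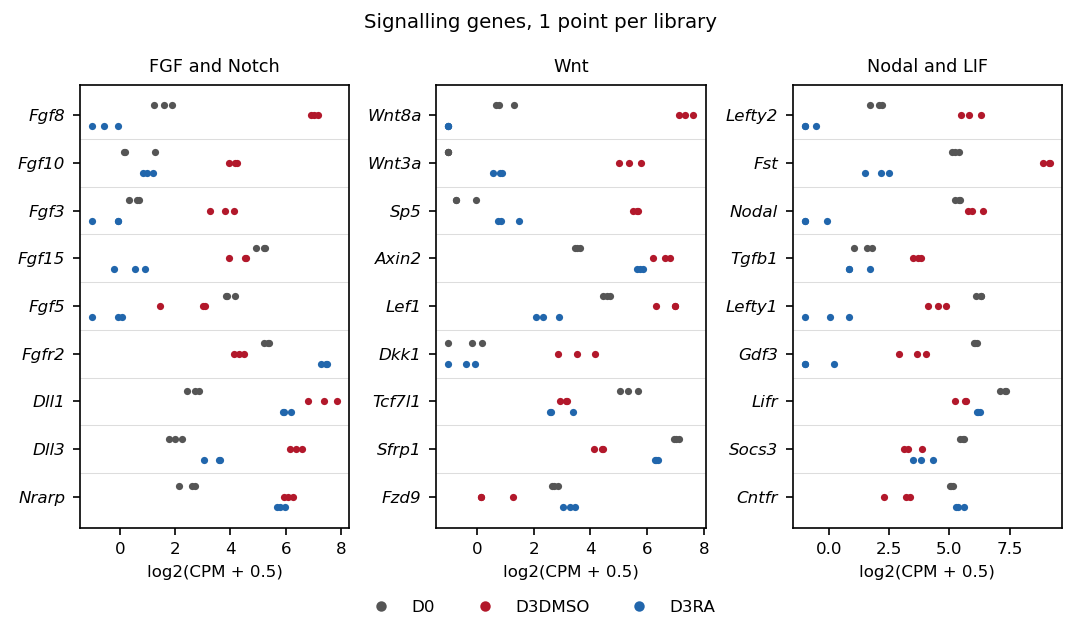
Levels of 27 signalling genes as log2(CPM + 0.5), 1 point per library, for D0 (grey), D3DMSO (red) and D3RA (blue). Fgf8, Wnt8a and Fst are high in the 3 D3DMSO libraries alone, Lefty1 and Gdf3 fall from D0 through D3DMSO to D3RA, and Fgfr2 is lowest in D3DMSO and highest in D3RA.

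Of 25 Notch pathway genes tested 10 were higher and 5 lower (median 0.20), and the ligands Dll1 and Dll3 were among the higher. Dll1, the ligand of presomitic mesoderm, went from 4.92, 6.13 and 6.81 to 111, 230.1 and 166 CPM (4.76 ± 0.23). Dll3, a related inhibitory ligand of the same tissue, went from 4.31, 3.46 and 2.93 to 70.1, 94.6 and 82.9 CPM (4.52 ± 0.17), and the feedback gene Nrarp from 6.05, 3.93 and 5.58 to 60.9, 77.0 and 66.9 CPM (3.72 ± 0.17). None of these overlapped between groups, and the receptor Notch1 rose as well (2.03 ± 0.30). Notch1 did not pass the test between D3DMSO and D3RA, nor did Nrarp except with the replicate number as a block (adjusted p = 0.037, higher in D3DMSO), while Dll1 and Dll3 were higher in D3DMSO by 1.34 and 3.00. The ubiquitin ligase Dtx1 fell (-2.10 ± 0.23).

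Of 30 BMP genes 11 were higher and 4 lower (median 0.37). The target gene Msx1 rose from 1.13, 2.36 and 1.42 to 33.3, 82.7 and 39.5 CPM (4.89 ± 0.35), and it was at 59.0, 51.1 and 54.8 CPM in D3RA. Bmp2 rose (2.98 ± 0.44), the antagonist Chrdl1 fell (-2.43 ± 0.26), and Bmp4 gave 0.31 ± 0.27 with an adjusted p of 0.36. Among other receptor tyrosine kinases, Pdgfra, the receptor of paraxial mesoderm, went from 2.56, 2.04 and 3.21 to 77.1, 144 and 123 CPM against 3.10, 3.58 and 2.74 CPM in D3RA (5.40 ± 0.23 against D0). Ret rose too (4.65 ± 0.23) but was higher still in D3RA. Epha1 went from 11.1, 10.7 and 12.1 to 139, 117 and 159 CPM (3.602 ± 0.12), and the guidance genes Slit3 and Plxna2 rose by 5.22 ± 0.30 and 5.20 ± 0.25. These genes were without overlap between D0 and D3DMSO. In the LIF pathway, which sustains mouse pluripotent cells, the receptor genes Lifr and Cntfr and the feedback inhibitor Socs3 fell. Lifr went from 157, 138 and 163 to 51.0, 37.4 and 50.03 CPM, Cntfr from 33.4, 32.1 and 35.1 to 8.70, 4.31 and 9.91 CPM, and Socs3 from 46.5, 42.6 and 48.7 to 14.1, 8.21 and 9.14 CPM. All of them fell without overlap (-1.74 ± 0.12, -2.20 ± 0.26 and -2.16 ± 0.18). Jak2 and Stat5a rose in the same list (1.92 ± 0.15 and 1.75 ± 0.25), Stat3 gave -0.17 ± 0.09 with an adjusted p of 0.13, and of the 25 genes 10 were higher and 7 lower.

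Genes that the transcription factor ATF4 is known to induce were mostly higher. ATF4 is translated when amino acids run short or the integrated stress response is active, and it switches on amino acid synthesis, uptake and tRNA charging. Of 31 such genes 25 were higher, 1 was lower and 5 did not pass the test, against 25.8% and 26.8% of all genes, with a median log2 fold change of 0.74. Chac1, a glutathione-degrading enzyme, went from 9.13, 9.75 and 8.32 to 112, 80.0 and 79.3 CPM. Trib3, a pseudokinase and feedback gene of the pathway, went from 6.26, 4.72 and 7.09 to 76.9, 44.1 and 51.6 CPM. Asparagine synthetase, Asns, went from 197, 196 and 188 to 887, 743 and 797 CPM. The ranges were far apart for each of them, with log2 fold changes of 3.30 ± 0.15, 3.22 ± 0.21 and 2.06 ± 0.09 and adjusted p-values of 1.0e-07, 1.3e-06 and 6.6e-08. Aldh1l2, a mitochondrial folate enzyme, went from 6.26, 5.35 and 7.56 to 38.2, 47.6 and 47.1 CPM (2.79 ± 0.16). The stress sensor Sesn2 (1.44 ± 0.10), the serine pathway phosphatase Psph (1.21 ± 0.13) and the mitochondrial enzyme Mthfd2 (0.98 ± 0.09) rose by smaller steps. Atf4 itself went from 259.9, 254 and 227 to 393, 331 and 324 CPM (0.49 ± 0.10, adjusted p = 0.0015), and it lost its call under total count scaling (adjusted p = 0.091); it is named here after its values were seen. The 1 lower gene, the tRNA synthetase Wars (-0.30 ± 0.09, adjusted p = 0.021), lost its call under 7 of 19 alternatives, among them without D0 replicate 1 (adjusted p = 0.090), without D0 replicate 3 (adjusted p = 0.061) and without D3DMSO replicate 2 (adjusted p = 0.083). Phgdh gave 0.35 ± 0.17 with an adjusted p of 0.11; with the replicate number as a block its adjusted p was 0.0097, and without D3DMSO replicate 3 it was 0.035. Under total count scaling 20 of the 31 were called higher.

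The D3RA libraries did not have these levels. Chac1 was at 5.28, 4.89 and 8.22 CPM in D3RA, Trib3 at 4.01, 3.58 and 5.02 CPM and Asns at 88.3, 94.5 and 76.7 CPM. By day 6 of the retinoic acid route all of these genes were above D0. The D6RA libraries differ from those of D0 in more than day, with 38242453 to 49644316 total counts against 7129180 to 9878744. They also hold 16300296 to 20993095 mitochondrial counts, against 0 in each D0 library. Day and these differences cannot be told apart here. There Chac1 was at 86.5, 81.1 and 85.3 CPM, Trib3 at 30.8, 30.7 and 29.6 CPM and Asns at 305, 283 and 291 CPM. Between the day 3 routes, 29 of 31 list members were higher in D3DMSO, none was lower (none at an unadjusted p under 0.05 in limma either) and the median difference was 1.86, where 25.4% of all 14107 genes tested were higher in D3DMSO and 25.5% were lower. This comparison shares its D3DMSO libraries with the one against D0. The list summed to 3719 to 3971 CPM in D0, 6213 to 7168 CPM in D3DMSO and 2082 to 2274 CPM in D3RA. The difference between the routes thus includes a level below D0 in D3RA, and its cause was not tested.

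The promoters of the ATF4 targets with the greatest rise that hold the composite C/EBP-ATF motif are shown because the members moved together. Of 25 list genes with a promoter window in the RefSeq-derived table (build GRCm38.p6, 250 bases before to 50 after the annotated start), 9 hold TGATGNAA on either strand, 36.0%, against 256 of all 9839 tested genes with a window, 2.602%. Of those 9, 6 were called higher: Chac1, Trib3, Vldlr, Asns, Pck2 and Gars, with Gars losing its call under total count scaling (adjusted p = 0.13). In the whole list 25 of 31 were higher. The list was chosen as known ATF4 targets, so its share of this motif cannot bear on the day 3 rise. Below, each window is given 5′ to 3′ on the gene's strand, the capitals marking the motif, and positions count from the start base as 0. The motif begins at -193 in Chac1 (chr2:119350992-119351291, plus strand), at 14 in Trib3 (chr2:152344011-152344310, minus strand), at -200 in Vldlr (chr19:27216770-27217069, plus strand) and at -23 in Asns (chr6:7693160-7693459, minus strand). None of these 4 matches overlaps another motif searched. A match describes letters and was not tested as a binding site.
Chac1: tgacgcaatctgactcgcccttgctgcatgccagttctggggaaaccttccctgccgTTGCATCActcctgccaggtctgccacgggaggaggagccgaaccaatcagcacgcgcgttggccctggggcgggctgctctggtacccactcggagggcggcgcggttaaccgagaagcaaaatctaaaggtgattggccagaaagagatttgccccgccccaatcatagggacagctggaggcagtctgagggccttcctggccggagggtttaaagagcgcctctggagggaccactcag
Trib3: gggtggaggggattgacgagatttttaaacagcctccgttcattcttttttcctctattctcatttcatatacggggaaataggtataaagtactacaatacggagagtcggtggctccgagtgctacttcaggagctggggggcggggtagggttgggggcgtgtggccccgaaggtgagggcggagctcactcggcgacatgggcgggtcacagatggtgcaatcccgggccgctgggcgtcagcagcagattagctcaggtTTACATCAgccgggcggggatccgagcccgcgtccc
Vldlr: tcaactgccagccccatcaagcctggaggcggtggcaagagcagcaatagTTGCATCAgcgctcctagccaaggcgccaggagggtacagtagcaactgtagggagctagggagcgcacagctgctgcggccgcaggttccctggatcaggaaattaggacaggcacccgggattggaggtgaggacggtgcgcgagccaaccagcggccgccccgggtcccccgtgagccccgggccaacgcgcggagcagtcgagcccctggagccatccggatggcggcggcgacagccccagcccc
Asns: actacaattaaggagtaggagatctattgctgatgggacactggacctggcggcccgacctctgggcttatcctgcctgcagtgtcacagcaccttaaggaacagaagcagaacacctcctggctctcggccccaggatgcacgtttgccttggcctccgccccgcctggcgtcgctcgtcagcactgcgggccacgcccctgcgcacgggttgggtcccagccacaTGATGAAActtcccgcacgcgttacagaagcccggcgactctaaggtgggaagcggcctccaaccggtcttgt

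Vldlr, a lipoprotein receptor that ATF4 induces in other cells, rose from 23.4, 38.1 and 35.5 to 142, 149 and 160.3 CPM (2.25 ± 0.16), without overlap and against 33.1, 37.5 and 28.8 CPM in D3RA.

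Chaperones and folding enzymes of the endoplasmic reticulum, which belong to the other arms of the unfolded protein response, were more often lower. Of 35 such genes 6 were higher and 18 were lower, with a median of -0.26. Calreticulin, Calr, went from 603, 551 and 496 to 231, 255 and 222 CPM, and the co-chaperone Sdf2l1 from 28.6, 32.9 and 25.7 to 13.5, 10.7 and 11.5 CPM. Manf, a secreted protein of the same response, went from 139, 124 and 129 to 67.7, 64.0 and 67.2 CPM. Their ranges did not overlap (-1.22 ± 0.09, -1.28 ± 0.14 and -0.97 ± 0.08). The sensors Atf6 (1.02 ± 0.11) and Ern1 (0.89 ± 0.19) and the degradation factor Herpud1 (1.61 ± 0.09) were higher. Cytosolic chaperones leaned the same way, with 10 of 45 higher and 21 lower, and the mitochondrial chaperonin pair Hspd1 and Hspe1 fell (-1.06 ± 0.09 and -1.03 ± 0.11).

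Amino acid transporters were more often higher than lower, and 4 of them are also in the ATF4 list. Of 31 genes 17 were higher and 6 lower (median 0.52). The neutral amino acid carrier Slc1a4 went from 71.3, 63.2 and 70.9 to 286, 322 and 321 CPM (2.17 ± 0.09), with 37.3, 34.2 and 37.5 CPM in D3RA. Slc7a7, an exporter of cationic amino acids, went from 19.08, 15.3 and 14.5 to 60.2, 50.1 and 57.0 CPM (1.78 ± 0.13), and the glycine carrier Slc6a9 also rose (2.09 ± 0.22). Each was without overlap. The arginine and lysine carrier of pluripotent cells, Slc7a3, fell from 283, 259 and 279.6 to 146, 114 and 143 CPM (-1.04 ± 0.10).

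Serine, folate and methionine metabolism genes were more often lower. Of 37 genes 9 were higher and 21 lower, with a median of -0.31, and Aldh1l2, Psph and Mthfd2, given above with the ATF4 targets, were among the higher ones. Mthfd1, the cytosolic trifunctional folate enzyme, went from 628, 636 and 571 to 192, 142 and 165 CPM, a log2 fold change of -1.89 ± 0.11. Its mitochondrial counterpart Mthfd2 went from 97.6, 94.0 and 88.9 to 189.7, 165 and 199 CPM. The serine hydroxymethyltransferases, named after their values were seen, also moved in opposite directions. The cytosolic Shmt1 was at 229, 216 and 203 CPM and then 116, 111 and 105 CPM (-0.97 ± 0.08), and the mitochondrial Shmt2 at 164, 165 and 165 CPM and then 288, 262 and 276 CPM (0.74 ± 0.07). No groups overlapped for these 4 genes. In D3RA all 4 were below D0, with Shmt2 at 68.1, 67.4 and 75.4 CPM and Mthfd2 at 55.8, 51.5 and 44.8 CPM. Cbs, the first enzyme of transsulfuration, fell from 27.0, 29.6 and 29.8 to 4.14, 1.85 and 4.80 CPM (-3.07 ± 0.29), and Odc1, the first enzyme of polyamine synthesis, fell from 297, 309.9 and 275 to 76.9, 61.6 and 69.2 CPM (-2.09 ± 0.10).

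**Figure D3:**
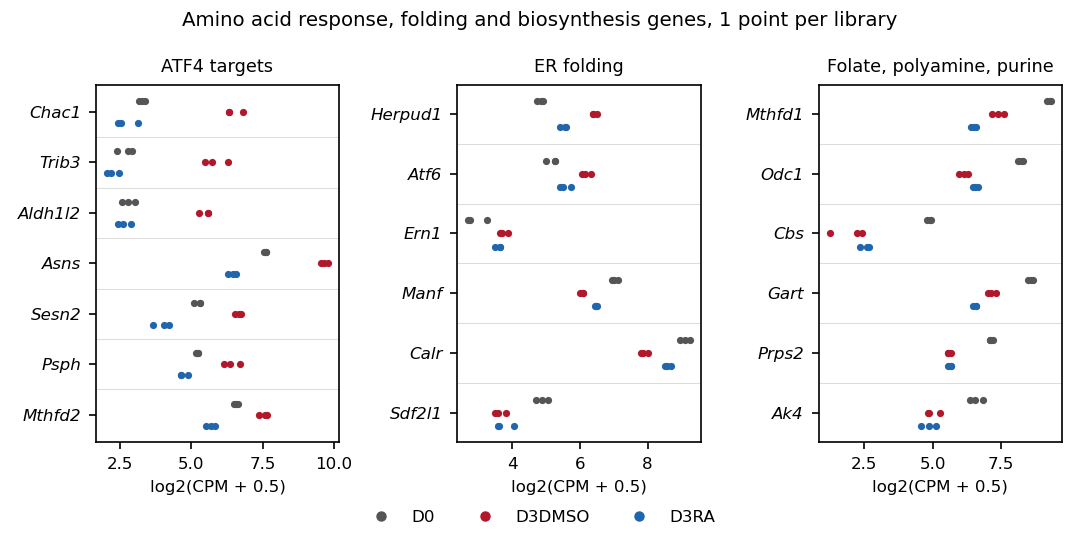
Levels of 19 genes of the amino acid response, protein folding and biosynthesis as log2(CPM + 0.5), 1 point per library, for D0 (grey), D3DMSO (red) and D3RA (blue). The ATF4 targets are highest in D3DMSO and lowest or near D0 in D3RA, the folding genes Manf, Calr and Sdf2l1 are highest in D0, and Mthfd1, Odc1, Cbs, Gart, Prps2 and Ak4 are lower in both day 3 groups than in D0.

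Purine and pyrimidine synthesis genes were mostly lower. Of 42 genes 30 were lower and 3 higher (median -0.67). Gart, an enzyme of purine ring assembly, went from 408, 384 and 359.8 to 158, 129 and 139 CPM (-1.44 ± 0.09). Prps2, which makes the ribose donor of nucleotides, went from 147, 135 and 134 to 50.3, 46.0 and 46.2 CPM (-1.54 ± 0.08). The ranges were clearly apart. The mitochondrial adenylate kinase gene Ak4 gave -1.60 ± 0.15, a value made uncertain by its processed copy Ak3l2-ps, which moved in the same direction (-1.80 ± 0.30). The 3 higher genes were Adssl1 (1.52 ± 0.27), Uckl1 (0.80 ± 0.13) and Ctps2 (0.37 ± 0.09), the last of which lost its call under total count scaling (adjusted p = 0.26). Between D3DMSO and D3RA the list was balanced, with 12 genes higher and 11 lower, and Prps2 was at 50.3, 49.8 and 47.0 CPM in D3RA.

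Genes of glucose handling were more often lower, with 21 of 34 genes of glycolysis and lactate lower and 6 higher (median -0.45). Hk2, the inducible hexokinase, went from 381, 521 and 444 to 117, 117 and 116 CPM (-1.93 ± 0.11), and the lactate exporter Slc16a3 from 341, 406 and 349.9 to 137, 144 and 110.1 CPM (-1.50 ± 0.11). The D3DMSO libraries were all below the D0 libraries. Txnip, an inhibitor of thioredoxin and of glucose uptake, was higher in a redox list whose members were more often lower, going from 29.5, 17.0 and 16.9 to 479, 289 and 311 CPM (4.10 ± 0.23, adjusted p = 4.2e-07). D3RA had 2.64, 3.91 and 3.20 CPM, so the gene was higher in D3DMSO than in both other groups. Of the 43 glutathione, thioredoxin and NRF2 target genes in that list 23 were lower and 5, Txnip among them, were higher. The glutathione synthesis subunit Gclm went from 45.9, 43.2 and 48.6 to 11.2, 9.24 and 11.5 CPM (-2.11 ± 0.12), the quinone reductase Nqo1 gave -2.19 ± 0.30 and the glutathione transferase Gsta4 gave -1.64 ± 0.09. For the respiratory chain, 18 of 82 nuclear genes were higher and 18 lower, with a median of 0.00, and under total count scaling 6 were higher and 6 lower. Mitochondrial ribosomal proteins leaned down, with 33 of 75 lower and 5 higher, and 20 lower under total count scaling. In cholesterol synthesis and uptake 13 of 29 genes were lower and 4 higher. Mylip, whose product degrades lipoprotein receptors, rose (1.84 ± 0.21). Lysosome and autophagy genes went up in 25 of 51 cases and down in 5 (median 0.27), led by Ulk2 (1.76 ± 0.12) and Gabarapl1 (1.34 ± 0.09); under total count scaling 8 were higher and 2 lower.

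Ribosome biogenesis genes were mostly lower. Of 101 genes for ribosomal RNA transcription, processing and subunit assembly 81 were lower and 2 were higher, with a median of -0.61, and 62 to 83 were lower over the alternatives. Polr1b, the second subunit of RNA polymerase I, went from 112, 101 and 108 to 31.6, 35.3 and 32.7 CPM. The nucleolar helicase Ddx21 went from 623, 607 and 629.9 to 226, 239.9 and 259 CPM, and the export factor Rrp12 from 147, 138 and 134 to 60.5, 55.8 and 58.4 CPM. No D3DMSO library came near the D0 range (-1.68 ± 0.09, -1.36 ± 0.08 and -1.26 ± 0.08, adjusted p 3.0e-07, 5.8e-07 and 1.0e-06). The 2 higher genes were the histone chaperone Npm3 (0.70 ± 0.17) and the kinase Riok1 (0.24 ± 0.09, adjusted p = 0.043), and Riok1 lost its call under 7 alternatives, among them leaving out D0 replicate 1, 2 or 3 or D3DMSO replicate 1 or 2 (adjusted p 0.078 to 0.13). Against D3RA, 36 of the 101 genes were higher in D3DMSO and 5 lower. Mycn, whose product activates this programme, fell from 241, 221 and 214 to 143, 136 and 131 CPM (-0.72 ± 0.08). Myc was at 9.85, 9.12 and 11.4 CPM and 13.1, 8.83 and 13.01 CPM, overlapping ranges with an adjusted p of 0.43. Between D3DMSO and D3RA, Mycn did not pass the test (difference 0.16, adjusted p = 0.20) and Myc was lower in D3DMSO (-0.76, adjusted p = 0.016).

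The E-box CACGTG, which Myc proteins and relatives bind, is in the promoter window of 19 of 87 ribosome biogenesis genes with a window (21.8%), and in 1169 of 9839 genes (11.9%). All 19 were called lower, in a list where 81 of 101 genes were lower. A link between the motif and the falls was not tested. The same motif is in 5 of 21 cholesterol genes (23.8%), 5 of 29 folding genes (17.2%) and 6 of 39 purine and pyrimidine genes (15.4%). The window of the one with the greatest fall, Wdr46 (chr17:33940473-33940772, plus strand), has the match at -12, in capitals, where it overlaps the shorter ER stress motif CCACG. Wdr46, a nucleolar scaffold protein gene, went from 85.9, 87.6 and 80.0 to 40.2, 38.8 and 34.2 CPM (-1.16 ± 0.09).
Wdr46: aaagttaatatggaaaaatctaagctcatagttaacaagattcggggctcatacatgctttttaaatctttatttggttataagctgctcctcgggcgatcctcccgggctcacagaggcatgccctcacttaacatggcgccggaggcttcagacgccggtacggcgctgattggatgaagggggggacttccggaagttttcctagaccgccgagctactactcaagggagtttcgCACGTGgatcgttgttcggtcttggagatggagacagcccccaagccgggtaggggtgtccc

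Ribosomal protein genes had other counts than their assembly factors. Of 82 cytosolic ribosomal protein genes 19 were higher and 9 lower with a median of 0.09, but without D3DMSO replicate 1 it was 14 higher and 16 lower, and pseudogene copies of these genes make single values uncertain. Translation factors leaned down, with 29 of 62 lower and 5 higher. Eif5a, the elongation factor that carries a polyamine-derived modification, went from 888, 910.0 and 832 to 380.4, 317 and 304 CPM (-1.40 ± 0.10). Aminoacyl-tRNA synthetases were split 10 higher to 12 lower, and the order turned to 15 and 10 under quantile normalization. A synthetase gene of this list is among the 4 dominant features given above. Against D3RA 24 of 39 synthetases were higher in D3DMSO and 2 lower.

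Counts for RNA processing factors differed by group. In the core spliceosome 45 of 76 genes were lower and 11 higher (median -0.33), and 25 and 2 under total count scaling. Lsm4, a ring protein of U6 and decay complexes, went from 92.0, 94.0 and 87.3 to 50.3, 41.5 and 38.3 CPM (-1.08 ± 0.11), and the polypyrimidine tract binding subunit U2af2 from 241, 214 and 194 to 122, 108 and 102 CPM (-0.96 ± 0.10). Snrnp48, a component of the minor spliceosome, went the other way, from 34.8, 32.4 and 32.1 to 74.0, 71.2 and 63.4 CPM (1.07 ± 0.10). None of the 3 overlapped. Of 31 hnRNP genes 17 were lower and 4 higher (median -0.32), while SR splicing factors were balanced at 8 and 8, and of 64 genes of RNA decay, the exosome and deadenylation 15 were higher and 20 lower (median -0.10). For m6A, the methyl mark of messenger RNA, 11 of 19 writers, readers and erasers were lower and 0 higher; 5 were lower under total count scaling and 7 without D0 replicate 2. At an unadjusted p under 0.05 the limma test also had 0 of the 19 higher.

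Tissue splicing regulators fell in 17 of 39 cases and rose in 7. The neuronal RNA-binding gene Elavl3 went from 21.9, 19.03 and 22.9 to 3.73, 2.87 and 2.01 CPM (-2.89 ± 0.22) and Celf2 gave -1.60 ± 0.16, and both were higher in D3RA than in D3DMSO. Rbpms2, an RNA-binding gene of muscle progenitors, went from 162, 167 and 179 to 51.5, 37.2 and 46.2 CPM (-1.92 ± 0.12). No library overlapped for these genes. In the microRNA and LIN28 group, Lin28a, which blocks let-7 maturation, was at 876, 861 and 802 CPM and then 470.2, 535 and 534 CPM (-0.72 ± 0.09), and the let-7 target Trim71 gave -0.73 ± 0.09. D3RA had only 55.7, 48.2 and 52.1 CPM of Lin28a. L1td1, an RNA-binding gene derived from a transposon, went from 379, 382 and 308 to 72.9, 45.0 and 58.7 CPM (-2.62 ± 0.16). Tdrd5, a germline piRNA factor, rose from 2.15, 2.04 and 2.27 to 19.19, 18.1 and 21.2 CPM (3.14 ± 0.17). The de novo DNA methyltransferase gene Dnmt3b fell from 1288, 1271 and 1261 to 293, 182 and 252 CPM (-2.42 ± 0.14). Of 65 small nucleolar and nuclear RNAs 22 were higher and 3 lower, but the count moved from 8 higher without D0 replicate 1 to 31 with the replicate number as a block, and without D3DMSO replicate 1 it was 15 higher and 8 lower.

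An interferon-type group was higher at day 3, at low absolute levels. Of 27 interferon-stimulated genes 18 were higher, 0 were lower and 9 did not pass the test (median 1.28); over the alternatives 14 to 19 were higher and 0 lower. At an unadjusted p under 0.05 the limma test also had 0 of the 27 lower, as did voom weights after adjustment. Gbp2, an interferon-induced GTPase, went from 0.308, 0.315 and 0.378 to 8.42, 8.01 and 7.13 CPM. Psmb8, the immunoproteasome subunit, went from 0, 0.157 and 0.662 to 6.21, 5.95 and 4.96 CPM, and the peptide transporter Tap2 from 0.923, 0 and 0.378 to 5.52, 6.77 and 7.75 CPM. Every D3DMSO library was above every D0 library (4.34 ± 0.29, 4.82 ± 0.77 and 4.39 ± 0.73, adjusted p 1.5e-06, 4.3e-04 and 5.9e-04). Gbp2, Psmb8 and Tap2 were below 1 CPM in every D0 library and passed the filter through D3DMSO alone, so they could be called only higher. The counts and median above include such genes, whose number was not determined. Of 45 names written for the list 27 were in the deposited table. Chosen after their values were seen, the transcription factor gene Irf1 went from 20.1, 24.1 and 22.9 to 99.6, 77.4 and 91.4 CPM (1.99 ± 0.12) and the membrane protein Ifitm1, which is also known from the primitive streak, from 3.69, 2.67 and 3.59 to 42.4, 67.3 and 53.1 CPM (3.996 ± 0.19). These also did not overlap. Between the routes 20 of 26 genes were higher in D3DMSO and 1 lower (median 2.53), the lower one being B2m at -0.51. In D3RA Irf1 was at 9.47, 8.47 and 10.0 CPM, Gbp2 at 0.182, 0.651 and 0 CPM, and Psmb8 had no count.

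The core of the interferon-stimulated response element, GAAA and GAAA with any 2 bases between them on either strand, is in the promoter window of 8 of 21 list genes (38.1%) and of 328 of 9839 genes (3.33%). The STAT element TTCNNNGAA is in 7 of the 21 (33.3%), against 8.13% of all genes. This list was chosen as known interferon-stimulated genes, so its share of these motifs cannot bear on the day 3 rise. Not all of the 8 genes with the first motif passed the test against D0. Those called were all higher, by as little as 0.45 ± 0.11 in B2m, which lost its call under total count scaling (adjusted p = 0.17). Windows of the 3 called members with the greatest rise among those holding the first motif are shown, with its letters in capitals. It begins at -59 in Gbp2 (chr3:142620413-142620712, plus strand), at -53 in Gbp7 (chr3:142530086-142530385, plus strand) and at 2 in Ddx58 (chr4:40239776-40240075, minus strand), and it overlaps no other motif searched in these windows. Gbp2 and Gbp7 are related neighbours whose reads can be shared. Gbp7 had 0.308, 0 and 0.0946 CPM in D0 and 2.62, 3.08 and 2.94 CPM at day 3 (4.22 ± 0.58), and the RNA sensor gene Ddx58 had 3.79, 2.36 and 2.84 and then 12.01, 22.0 and 18.3 CPM (2.50 ± 0.26).
Gbp2: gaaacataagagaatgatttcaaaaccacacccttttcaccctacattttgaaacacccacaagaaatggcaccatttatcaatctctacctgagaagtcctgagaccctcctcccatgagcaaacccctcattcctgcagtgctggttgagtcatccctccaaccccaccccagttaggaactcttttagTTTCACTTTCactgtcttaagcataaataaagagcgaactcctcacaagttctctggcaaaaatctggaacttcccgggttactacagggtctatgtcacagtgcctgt
Gbp7: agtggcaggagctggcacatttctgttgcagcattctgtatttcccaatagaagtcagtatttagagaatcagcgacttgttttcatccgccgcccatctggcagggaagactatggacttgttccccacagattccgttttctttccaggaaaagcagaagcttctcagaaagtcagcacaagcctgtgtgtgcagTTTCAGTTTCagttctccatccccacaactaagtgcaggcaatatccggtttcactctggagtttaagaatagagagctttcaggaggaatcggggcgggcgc
Ddx58: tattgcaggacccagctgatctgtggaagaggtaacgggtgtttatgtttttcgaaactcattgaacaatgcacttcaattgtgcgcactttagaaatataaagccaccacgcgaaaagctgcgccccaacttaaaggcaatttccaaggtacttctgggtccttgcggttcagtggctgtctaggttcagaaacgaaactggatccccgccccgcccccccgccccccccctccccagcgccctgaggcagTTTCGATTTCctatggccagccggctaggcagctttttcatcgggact

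The other 7 motifs were searched in the same way on both strands. The antioxidant core TGACNNNGC was in 9 of 38 redox genes and 17.2% of all genes, and the TCF/LEF forms CTTTGAT and CTTTGAA were in 3 and 2 of 31 Wnt genes, against 2.99% and 4.16% of all genes. The sterol element TCACNCCAC was in 0 of 21 cholesterol genes and 1.45% of all genes, and the ER stress motif CCACG was in 24 of 29 genes of the folding list and 53.1% of all genes. The cAMP element TGACGTCA was in 3.75% of all genes and the T-box core AGGTGTGA in 0.966%.

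Gene families were also formed from shared symbols, some of whose members are in the lists above. Poly(ADP-ribose) polymerases ranked the third by median among 219 families of symbols with at least 8 tested genes, with 10 of 12 higher, 1 lower and a median of 0.93. Parp10 went from 4.21, 4.56 and 3.31 to 27.3, 23.4 and 24.3 CPM (2.63 ± 0.17) and Parp12 from 0.718, 1.10 and 0.473 to 3.04, 4.11 and 3.87 CPM (2.26 ± 0.37); Parp9 and Parp14 are also in the interferon list. The founding member Parp1, which acts in DNA repair, was the lower one (-0.86 ± 0.09). Axonemal dynein heavy chains of motile cilia were second, with 6 of 8 higher and none lower (median 1.44; 1 was lower at an unadjusted p under 0.05 in limma). Dnah11, needed for motion of nodal cilia, went from 1.23, 0.157 and 0.946 to 5.39, 9.85 and 8.52 CPM (3.53 ± 0.56) and Dnah8 from 2.87, 2.67 and 3.59 to 9.25, 9.44 and 11.8 CPM (1.72 ± 0.21). In the wider cilia list 32 of 67 genes were higher and 7 lower (median 0.36). Bbs9, a trafficking subunit, went from 14.2, 15.7 and 15.8 to 39.8, 37.6 and 34.7 CPM (1.29 ± 0.11). The Wnt ligands had the highest median (3.603, 5 of 8 higher), followed below the polymerases by adenylate cyclases (0.92, 5 of 8 higher) and protocadherins (0.89, 4 of 8 higher). Adcy2 (3.55 ± 0.26) and Pcdh19 (5.74 ± 0.55) led those families.

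**Figure D4:**
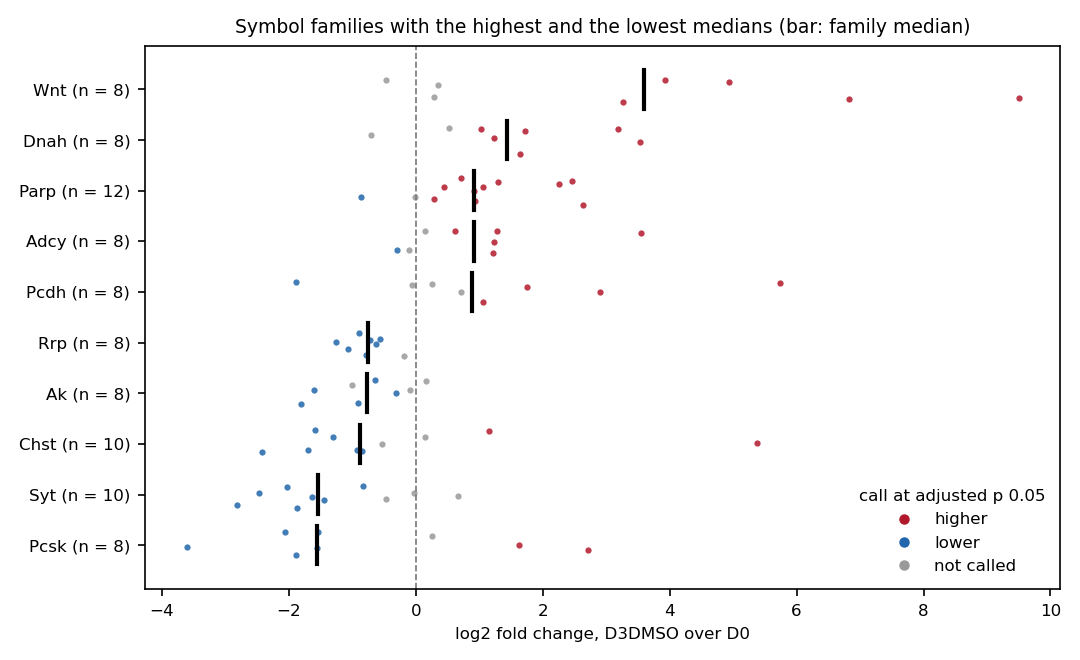
Log2 fold change (D3DMSO over D0, horizontal axis) of each tested member of 10 symbol families, 5 from the top and 5 from the bottom of the order of medians, 1 point per gene, coloured by call, with a bar at each family's median and a dashed line at the median of all genes. Wnt, Dnah and Parp lie highest (3.603, 1.44 and 0.93), and Pcsk and Syt lowest (both -1.55).

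At the lower end stood synaptotagmins, calcium sensors of vesicle release, with 7 of 10 lower and none higher (median -1.55; 1 was higher at an unadjusted p under 0.05 in limma). Syt7 went from 29.5, 30.2 and 29.1 to 5.11, 2.67 and 5.11 CPM (-2.82 ± 0.23) and Syt1 from 6.36, 8.65 and 7.09 to 1.10, 1.03 and 1.70 CPM (-2.47 ± 0.27), with Syt1 at 25.2, 33.5 and 24.2 CPM in D3RA. The symbols starting with Pcsk, mostly proprotein convertases, had 5 of 8 lower and 2 higher, and within them Pcsk5 rose (2.71 ± 0.29) while Pcsk6 fell (-3.61 ± 0.40). Carbohydrate sulfotransferases had 6 of 10 lower, but Chst7 rose from 0.923, 1.10 and 1.89 to 51.9, 64.9 and 47.1 CPM (5.38 ± 0.25). Adenylate kinase symbols (median -0.77, 5 of 8 lower, the 8 including the processed copy Ak3l2-ps) and the Rrp ribosomal RNA processing genes (-0.75, 7 of 8 lower) completed the lowest 5. Tubulins fell in 11 of 14 cases with 1 higher (median -0.80), with Tubb4a going from 21.2, 25.5 and 29.6 to 4.83, 4.52 and 8.21 CPM (-2.14 ± 0.23), and related tubulin genes can share reads. Of 358 Zfp zinc finger genes 149 were higher and 40 lower (median 0.27), and 85 and 21 under total count scaling. Zfp703 went from 0.513, 0.315 and 0.567 to 11.9, 14.2 and 22.9 CPM (4.94 ± 0.32) and Zfp503 from 0.308, 1.10 and 0.946 to 13.9, 23.6 and 18.3 CPM (4.61 ± 0.41). Against D3RA the Zfp genes were split 77 higher to 97 lower.

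Replication-dependent histones were lower in 26 of 47 cases and higher in 2, the linker histone genes Hist1h1c (0.61 ± 0.16) and Hist1h1e (0.53 ± 0.09), both of which lost their calls under total count scaling (adjusted p = 0.062 and 0.10). Histone copies share sequence, so single values are uncertain. Imprinted genes were more often higher, 22 of 45 against 12 lower (median 0.46). Sfmbt2, a polycomb gene of extraembryonic tissue, went from 7.69, 7.71 and 6.43 to 46.7, 45.4 and 63.5 CPM (2.81 ± 0.16). The growth regulator Phlda2 rose (1.40 ± 0.18), the trophoblast factor Ascl2 fell from 6.46, 6.45 and 7.66 to 1.52, 1.64 and 0.465 CPM (-2.59 ± 0.41), and Magel2 fell (-2.20 ± 0.22). Among p53 target genes 12 of 32 were higher and 9 lower, and 8 each way under total count scaling. The cell cycle inhibitor Cdkn1a went from 1.13, 0.786 and 1.32 to 7.04, 6.98 and 7.28 CPM (2.68 ± 0.26) against 1.09, 0.651 and 1.37 CPM in D3RA, while Mdm2, the direct p53 feedback gene, gave -0.03 ± 0.08 with an adjusted p of 0.81.

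Among the genes with the greatest rises outside the streak and Hox genes were those of a retinoid-making enzyme, a peptide receptor and surface enzymes. Aldh1a2, which makes retinoic acid in the early mesoderm, went from 0.410, 0.157 and 0.378 to 188, 245 and 208 CPM (9.21 ± 0.25). The apelin receptor gene Aplnr went from 1.03, 0.944 and 0.756 to 245, 330.5 and 297 CPM (8.23 ± 0.16), and Nt5e, the surface enzyme that makes adenosine, from 0.615, 0.629 and 0.946 to 153, 103 and 149 CPM (7.42 ± 0.21). All 3 were low in every D0 library, and the groups did not overlap. Arginase, Arg1, went from 0.205, 0.157 and 0.473 to 40.7, 52.8 and 51.0 CPM (7.25 ± 0.31), and the transmembrane collagen gene Col13a1 from no count to 10.6, 16.6 and 13.2 CPM, at least 119.9-fold higher against a floor of 3 counts over the D0 group. Foxb1 likewise had no count in D0 and 37.4, 46.8 and 36.4 CPM at day 3, at least 358-fold higher against the same floor. These 6 genes were also higher in D3DMSO than in D3RA. Fibronectin, Fn1, the matrix protein on which mesoderm migrates, went from 79.3, 81.6 and 145 to 574, 1187 and 1604 CPM (3.39 ± 0.33), while Sparc, another matrix gene, fell from 319, 291 and 301 to 84.0, 59.9 and 60.6 CPM (-2.17 ± 0.12). The D3DMSO libraries spread widely for Fn1, with replicate 1 the lowest. Among the largest falls were Jakmip2 (31.3, 32.4 and 28.8 to 1.66, 1.64 and 1.39 CPM, -4.23 ± 0.17) and the growth cone gene Gap43 (23.2, 20.4 and 16.3 to 1.24, 1.03 and 1.24 CPM, -3.99 ± 0.21). Both stood at or above the D0 level in D3RA, with Gap43 at 139, 174 and 142 CPM. Foxd3, a factor of epiblast and neural crest, fell from 73.6, 63.1 and 56.1 to 9.25, 2.26 and 4.96 CPM (-3.73 ± 0.38), and the natriuretic peptide receptor gene Npr3 from 31.1, 30.2 and 30.2 to 2.76, 0.616 and 2.17 CPM (-4.20 ± 0.41). Trh, the precursor gene of thyrotropin-releasing hormone, was at 1687, 1609.9 and 1445 CPM and then 1029.7, 506 and 699 CPM (-1.14 ± 0.20), and its adjusted p was 9.1e-04 here and 0.051 when the 9 libraries of D0 and day 3 shared one spread. D3RA had 1.46, 1.30 and 6.85 CPM of it, so it was still far higher on the DMSO route.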

How the data were processed

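Total RNA was depleted of ribosomal RNA and sequenced from stranded libraries as single-end reads, per the labels' protocols. The authors deposited 1 table of log2 values per gene and library, and per the submitters' processing notes the tools used for the series were Trimmomatic 0.32, FastQC 0.11.2, STAR 2.6.0c, Bowtie2 2.2.9, SAMtools 0.1.19, featureCounts, edgeR and limma, with genome mm9; which step each made and whether counting used strand is not given in the sources used here. The deposited log2 values are log2 of a scaled count plus 0.5: undoing this gave whole counts within 0.05 for 100% of the values. Each library's scale gave its size for CPM (counts per 1000000 of that size). These sizes differ from the total counts, with 7241765 against 6151415 in D3DMSO replicate 1 and 6359294 against 7129180 in D0 replicate 2. No column was left unused. Of the 14717 genes 14228 had a symbol in the tables supplied.

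Limma 3.58.1 (R 4.3.3) with a variance trend was fitted to the deposited log2 values of the 6 libraries compared, and p-values were adjusted by Benjamini-Hochberg across every gene of at least 1 CPM in at least 3 of them. A gene that passed this filter through D3DMSO alone could be called only higher, and through D0 alone only lower. Fold changes are on that log2 scale and understate the change of low genes. The labels number 3 replicates per group without saying whether they were separate cultures, so p-values reflect only how these libraries vary, perhaps for technical reasons. Same-numbered libraries deviated together (correlations 0.29, 0.15 and 0.47 for D3DMSO with D0, and 0.42, 0.16 and 0.22 with D3RA), so the replicate number was also fitted as a block. Counting intervals and floors (95%, 3 counts) cover counting error only. Counts were simulated for 13837 genes from the mean levels of D0 and D3DMSO. Every gene in both groups got 1 common dispersion (spread beyond counting error) of 0.0019, estimated from the D0 libraries alone. On these counts the fit recovered 88% and 84% of genes lowered and raised by 1 on the log2 scale. It recovered 98% and 100% of those changed by 2, with 7 false calls. Genes that spread more widely, such as Fn1 in D3DMSO, are not covered by these figures.

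Genes were named by rule: a fixed panel, up to 3 called members with the highest and 3 with the lowest change per list (at least 5 CPM in the higher group, groups not overlapping), the 15 most raised and 15 most lowered genes at 10 CPM, and members of families or lists where 5 or fewer are counted. Genes outside this rule were named after their values were seen, which besides those so marked holds for Stat3, Mdm2 and the genes named with the promoter windows and the symbol families. The gene lists, the members and the 11 promoter motifs were chosen with earlier results of these data known, and no list was tested as a set. Mixl1 and Nkx2-5 were not analysed here, and some genes that the rule names are not reported here. Promoter windows come from RefSeq (GRCm38.p6); the table's genes were joined to them by symbol only.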

Additional observations from a re-analysis of the deposited data

How the results depend on the processing

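All alternatives changed 1 choice at a time. Total count scaling of the recovered counts, in which the 4 dominant features take part, called 4671 genes, 2106 of them higher, against 7285 and 3573 in the analysis reported. Leaving those features out of the total, an alternative chosen after seeing the data, called 4132 higher and 3191 lower, which moved the share of calls that were higher from 49.0% to 56.4% and the median of all genes to 0.08. Leaving out 1 library at a time gave 2975 to 3657 higher and 3026 to 3866 lower genes. With the replicate number as a block, 3983 genes were higher and 4133 lower; among the 162 genes named the block changed, against D0, only the call of Phgdh, gained at an adjusted p of 0.0097. Between D3DMSO and D3RA the block gave 3851 higher and 3908 lower genes, against 3581 and 3591 without it, and of the genes named it added calls for Adcy2, Hspe1, Kdr, Magel2, Nrarp, Pcdh19 and Socs3. None of the 157 named genes called against D0 changed direction in any alternative, and 11 lost their call in at least 1. Of those 11, 8 did so under total count scaling, and the cause was not tested. Named genes that were not called were not examined for a change of direction.

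Counts in some lists changed with the scaling or without single libraries, and so did those over all 13837 genes. Total count scaling called 2106 of all genes higher and 2565 lower, against 3573 and 3712 in the analysis reported. Without D0 replicate 1 these were 2975 and 3026, and without D3DMSO replicate 2 they were 3104 and 3323. Without D0 replicate 2 or 3, 3030 and 3246 genes were lower. Whether a list lost more calls than all genes did was not tested. Under total count scaling 4 cytosolic chaperone genes were higher and 12 lower, hnRNP genes were 2 and 11, SR factors 2 and 5, RNA decay genes 5 and 13, translation factors 2 and 16, tRNA synthetases 3 and 6, ribosomal proteins 2 and 1, glycolysis genes 3 and 15, cilia genes 21 and 4, proteasome subunits 1 and 8 and cell cycle genes 4 and 12. Notch genes called lower went from 5 to 3 without D0 replicate 2, D0 replicate 3 or D3DMSO replicate 2. Without D0 replicate 1, respiratory chain genes were 12 higher and 9 lower, mitochondrial ribosomal protein genes 3 higher and 25 lower, and hnRNP genes 2 higher and 15 lower. Without D3DMSO replicate 2, 1 neural marker was higher and 4 were lower. All 6 libraries have at most 9878744 counts, so genes near 1 CPM rest on few counts and small changes in them were not detectable at this depth.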

Other observations

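Gene classes outside the lists also differed in their counts. Of 220 long noncoding RNA genes 64 were higher and 13 lower in D3DMSO than in D0 (median log2 fold change 0.38), whereas of 650 pseudogenes 50 were higher and 169 lower (median -0.21), and of 12168 protein-coding genes 3254 were higher and 3442 lower. Pseudogene reads can come from their parent genes. Chromosome medians lay between -0.17 on chromosome 15 and 0.13 on chromosome 18.

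Of 4 trophoblast markers tested 3 were higher and 1 lower (median 1.63), with sums of 36.5 to 39.5 CPM in D0 and 101 to 106 CPM in D3DMSO. Eomes rose from 29.5, 27.5 and 29.0 to 94.0, 96.1 and 92.5 CPM (1.71 ± 0.08), while Ascl2 fell (-2.59 ± 0.41). Eomes is also a gene of the primitive streak. The fibroblast markers tested were split 2 higher to 2 lower. Tek, an endothelial receptor gene, went from 10.6, 9.12 and 10.2 to 1.10, 0.205 and 0.775 CPM (-3.89 ± 0.44) and stood at 27.3, 22.1 and 32.0 CPM in D3RA.

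Other sets differed in direction. Proteasome subunits had 18 of 36 lower and 2 higher (median -0.29), and Psmb8 of the immunoproteasome was 1 of those 2. Cell cycle genes had 20 of 39 lower and 7 higher. Germline genes had 7 of 13 higher and 4 lower, and fatty acid oxidation 11 of 30 higher and 3 lower.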
